A study of Mus musculus with 111 samples.

Results

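The genes described here encode voltage-gated and potassium ion channels. They are the genes whose symbol in the array annotation starts with Kcn, Cacn or Clcn, or with Scn followed by a digit. Of 126 such genes with a probe set that lists a single gene, 106 had a signal above the array's 40th percentile on at least 5 of 111 arrays and were tested, among 16029 genes tested in all. Each gene is represented by its probe set with the highest mean signal. The 20 that did not pass the filter were Cacng3, Cacng8, Kcnab3, Kcnd2, Kcne1, Kcne3, Kcnh5, Kcnh8, Kcnj1, Kcnk12, Kcnk7, Kcnmb4os1, Kcnn3, Kcnq3, Kcns1, Kcnv1, Scn10a, Scn1a, Scn3a and Scn9a. The tested genes comprised 25 pore subunits of voltage-gated potassium channels, 12 potassium channel accessory subunits, 14 inward rectifiers, 7 calcium- or sodium-activated potassium channels and 10 tandem-pore potassium channels. They further comprised 9 calcium channel pores, 4 alpha2delta, 3 beta and 6 gamma subunits of calcium channels, 7 chloride channels and transporters, 4 sodium channel pores, 3 sodium channel beta subunits and 2 noncoding RNAs, Kcnmb4os2 and Kcnq1ot1.

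In a muscle fibre, sodium channels carry the action potential along the surface and into the transverse tubules, where the L-type calcium channel senses the voltage and opens the calcium store. The chloride channel Clcn1, the inward rectifiers and the voltage-gated potassium channels return the membrane to rest and hold it there. Macrophages, vessel cells, nerve and connective tissue in the same muscle carry channels of their own, so a whole-muscle RNA sample holds all of them, and in such a sample fewer cells of a type and less RNA per cell cannot be told apart.

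The muscles were gastrocnemius of male C57BL/6 mice aged 8 weeks, and 111 muscles of 70 mice were hybridised, each to 1 array. In the casting model the right hindlimb was held in a cast, and the uncast left leg of the casting animals served as control, with 10 cast and 9 control muscles on day 2, 7 cast and 8 control muscles on day 7, and 9 of each on day 14. In the tenotomy model the Achilles tendon of 1 leg was cut under ether and ketamine-xylazine anaesthesia. The labels of the samples assign the tenotomy to the left legs and the control state to the right legs, whereas the design text names the right leg as the operated one. The legs are therefore called the left leg labelled tenotomy and the right leg labelled control throughout, with 5 muscles of each on day 2, 7 of each on day 7 and 5 of each on day 14. Sham muscles were right legs in which the tendon was isolated but not cut, with 3, 7 and 8 muscles at days 2, 7 and 14, and the 7 naive muscles were right legs of untreated animals. The 3 sham muscles of day 2 were placed by their titles, because their treatment field gives no treatment. Animals were numbered separately in the casting, tenotomy, and sham and naive cohorts, so that model and cohort cannot be told apart, and within the casting and tenotomy models leg side went with treatment.

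Values are MAS5 signals, linear brightness values per probe set that the authors scaled to the same 2% trimmed mean on every array, which was 99.955 to 99.965. Differences are given in log2 of the signal plus 3.982, with the standard error (SE) and with an adjusted p from limma over all 16029 genes, and a gene is said to have risen or fallen where that p was below 0.05. A signal belongs to 1 probe set, so levels are compared between samples and never between genes. Every one of 8 muscle fibre marker genes was tested, and their summed signal lay between 35509 and 151604 over all arrays. No signal was 0 on any array, the lowest being 0.0116, and the number of arrays limits the precision.

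Channel genes changed in both models, and the share of them that passed the test was near or below that of all genes in most comparisons. Between cast and control legs, 14 of 106 channel genes passed at day 2 (4 higher and 10 lower in cast legs), against 24.3% of all genes (11% higher and 13.3% lower). Day 7 of casting had 8 (4 higher, 4 lower), against 8.77% of all genes (4.22% and 4.55%), and day 14 had 14 (7 higher, 7 lower), against 13.2% (7.17% and 6.04%).

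Between the left leg labelled tenotomy and the right leg labelled control, 23 channel genes passed on day 2 (18 higher and 5 lower in left legs), against 36.7% of all genes (15.9% and 20.8%). Day 7 had 27 (19 higher, 8 lower), against 32.9% (14.6% and 18.3%), and day 14 had 26 (15 higher, 11 lower), against 23.2% (9.71% and 13.5%). Between the right legs of tenotomy animals and sham legs, 24 passed on day 2 (7 higher and 17 lower in right legs), against 35% of all genes (19.6% and 15.5%). Day 7 had 33 (16 higher, 17 lower), against 41.2% (23.5% and 17.7%), and day 14 had 28 (17 higher, 11 lower), against 35.9% (20.6% and 15.3%). These comparisons share samples, since the right legs of tenotomy animals enter the last as well as the preceding one. The median log2 difference of the 106 channel genes was -0.03, -0.01 and 0.03 in cast legs at days 2, 7 and 14, beside -0.03, 0.01 and 0.04 for all genes. In left legs labelled tenotomy against right legs it was 0.14, 0.16 and 0.07, beside -0.03, 0.00 and -0.02 for all genes. Of the 31 channel genes above the filter on all 111 arrays, 38.7%, 25.8% and 38.7% passed in cast legs, against 36.9%, 13.9% and 19.4% of all genes so measured. For left against right legs these shares were 54.8%, 54.8% and 45.2%, against 51%, 45% and 32.4%, and for right legs against sham 45.2%, 54.8% and 35.5%, against 49%, 56% and 50.9%. Over the 16 comparisons between 2 groups of muscles, 71 of 106 channel genes passed the test at least once, against 76.5% of all genes. Calls of the 30 named genes were followed through other settings between legs, in right legs against sham, between days and between models. Of these 187 calls, 59 ended in at least 1 other setting of the processing or without 1 array. Calls in left legs against sham, in sham legs against naive and in uncast legs against naive were not followed this way.

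**Figure D1:**
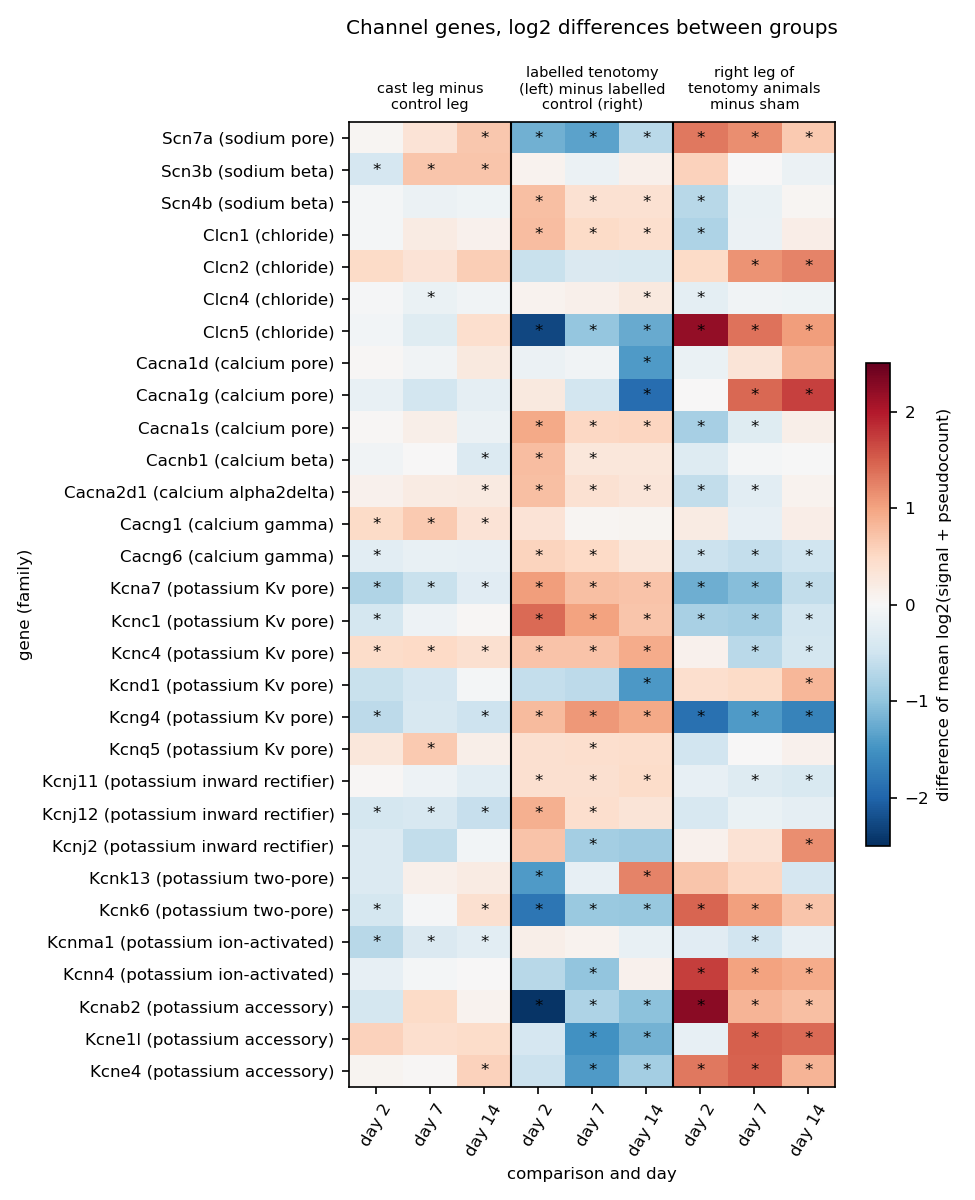
Log2 differences (colour) of the 30 channel genes named in the text, in rows, in 9 comparisons, in columns: cast minus control leg, left leg labelled tenotomy minus right leg labelled control, and right leg of tenotomy animals minus sham, each at days 2, 7 and 14. An asterisk marks an adjusted p below 0.05. Kcna7 was lower in cast legs at all 3 days, higher in the left legs labelled tenotomy at all 3 days, and lower in the right legs of tenotomy animals than in sham legs at all 3 days.

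The casting comparison asks how immobilisation in a cast changed channel transcripts. In cast legs Kcna7, Kcnma1 and Kcnj12, which encode potassium channel pores, fell at days 2, 7 and 14, whereas the potassium channel gene Kcnc4 and Cacng1, a subunit of the muscle L-type calcium channel, rose at all 3 days. Of 22 channel genes that passed the test at 1 or more cast days, 6 passed at all 3. Among all genes 33.7% passed at 1 or more cast days and 2.75% at all 3. Scn3b, the only 1 of the 6 with both signs, fell at day 2 and rose at days 7 and 14. Genes of the voltage sensor, the resting chloride conductance and the sodium channel beta4 subunit, Cacna1s, Clcn1 and Scn4b, passed at no cast day, with log2 differences between -0.15 and 0.21.

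Among the 25 pore subunits of voltage-gated potassium channels, 1 rose and 4 fell in cast legs at day 2, 2 rose and 1 fell at day 7, and 1 rose and 3 fell at day 14. The shares of all genes were 11%, 4.22% and 7.17% higher and 13.3%, 4.55% and 6.04% lower. Kcna7 encodes Kv1.7, a delayed rectifier of the Shaker family. Its signal in cast legs at day 2 was 629 at the lowest, 791 at the median and 1123 at the highest, against 967, 1416 and 1619 in control legs. At day 7 these 3 values were 691.0, 925 and 1316 in cast legs, against 1282, 1424 and 1620.0 in control legs, and at day 14 they were 689, 1195 and 1518 in cast legs, against 1270.0, 1433 and 1586 in control legs. The groups overlapped at each day, but the cast leg was the lower one in 9 of 9 animals at day 2, in 7 of 7 at day 7 and in 8 of 9 at day 14. The log2 difference was -0.74 ± 0.10 (SE, adjusted p = 1.32e-09) at day 2, -0.57 ± 0.11 (adjusted p = 0.000123) at day 7 and -0.28 ± 0.10 (adjusted p = 0.0476) at day 14. The difference of Kcna7 was smaller at day 14 than at day 2 by 0.46 ± 0.14 (adjusted p = 0.0164), and 5 of 106 channel genes had such a change between the days, against 14.3% of all genes. The call of this change ended in 1 of 11 other settings (adjusted p from 0.00364 to 0.0601). The call of Kcna7 in cast legs at day 14 ended in 5 of 11 other settings, over which the adjusted p ran from 0.0141 to 0.137.

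Kcnc4 encodes Kv3.4, a fast-inactivating channel that opens at depolarised voltages. Its signal was 286 at the lowest, 356 at the median and 467 at the highest in cast legs at day 2, against 174, 254 and 369 in control legs. At day 7 it was 190, 447 and 577 in cast legs, against 220.1, 282 and 344 in control legs, and at day 14 it was 277, 366 and 474 in cast legs, against 210.4, 281 and 316 in control legs. Most cast legs lay above the control median, with 1 cast muscle of day 7 below all control muscles of that day, and the cast leg was the higher one in 8 of 9, 6 of 7 and 8 of 9 animals at days 2, 7 and 14. The log2 differences were 0.45 ± 0.13 (adjusted p = 0.0043), 0.49 ± 0.14 (adjusted p = 0.0158) and 0.40 ± 0.13 (adjusted p = 0.0283). The call at day 7 ended in 2 of 11 other settings, over which the adjusted p ran from 0.0015 to 0.0638.

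Kcna7 and Kcnc4 were the 2 voltage-gated potassium channel pores that passed at all 3 cast days, in opposite directions, and the 250 bases before their start sites are shown for that reason. The sequences are from RefSeq on the mouse build GRCm38.p6, printed 5′ to 3′ on the gene's strand, with matches to the E-box CANNTG, the site that MyoD family factors bind, in capitals. CANNTG reads the same on both strands.
Kcna7, chr7:45405710-45405959, plus strand: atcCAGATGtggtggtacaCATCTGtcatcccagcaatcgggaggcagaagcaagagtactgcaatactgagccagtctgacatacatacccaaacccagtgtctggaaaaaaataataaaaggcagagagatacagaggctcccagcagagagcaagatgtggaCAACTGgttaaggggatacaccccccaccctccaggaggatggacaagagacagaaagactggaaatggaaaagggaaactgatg
Kcnc4, chr3:107458899-107459148, minus strand: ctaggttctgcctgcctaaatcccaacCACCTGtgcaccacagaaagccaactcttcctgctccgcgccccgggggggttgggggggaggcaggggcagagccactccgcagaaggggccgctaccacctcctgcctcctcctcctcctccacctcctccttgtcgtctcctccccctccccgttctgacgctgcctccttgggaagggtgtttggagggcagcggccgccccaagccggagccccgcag
The Kcna7 window held 3 matches, of which CAACTG, at positions -85 to -80 from the start site, lay nearest to it, while the single match of the Kcnc4 window, CACCTG, lay at -223 to -218. CANNTG occurs in 66.2% of 32851 RefSeq promoters of the same length, so its presence does not set these windows apart. Neither window held the forkhead letters GTAAACA, which 3.17% of promoters hold, on either strand. Base composition differed, with 48.4% G and C and 1 CG dinucleotide before Kcna7 and 68.0% and 12 before Kcnc4, beside medians of 52.4% and 6 over all promoters. Of 106 channel genes, 84 had an entry in the promoter table. Cacng1 had none.

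Kcng4 encodes Kv6.4, a modifier subunit that forms channels together with Kv2 subunits. In cast legs its median signal was 82.6 at day 2, 123 at day 7 and 136 at day 14, against 134, 175 and 178 in control legs. It fell at day 2 by 0.65 ± 0.15 on the log2 scale (adjusted p = 0.000278), lower in 9 of 9 animals, and at day 14 by 0.51 ± 0.15 (adjusted p = 0.0126), lower in 9 of 9 animals. At day 7 the difference was -0.40 ± 0.16 (adjusted p = 0.126). Kcnc1, which encodes the fast Kv3.1 channel, fell at day 2 only (-0.44 ± 0.13, adjusted p = 0.00533) and was at -0.13 and 0.04 at days 7 and 14. Kcnq5, which encodes the slow Kv7.5 channel, rose at day 7 by 0.66 ± 0.15 (adjusted p = 0.00174).

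Kcnma1 encodes the large-conductance potassium channel opened by calcium and voltage. In cast legs its signal was 60.01 at the lowest, 87.4 at the median and 108 at the highest at day 2, against 125, 136 and 162 in control legs, with no overlap. At day 7 it was 85.2, 111 and 128 in cast legs, against 108, 147 and 156 in control legs, and at day 14 it was 99.5, 115 and 167 in cast legs, against 130.0, 146 and 156 in control legs. The muscles overlapped at the later days, with the cast leg lower in 7 of 7 animals at day 7 and in 8 of 9 at day 14. The log2 differences were -0.70 ± 0.09 (adjusted p = 5.82e-10), -0.36 ± 0.10 (adjusted p = 0.0114) and -0.27 ± 0.09 (adjusted p = 0.0386), and the fall was smaller at day 14 than at day 2 by 0.43 ± 0.13 (adjusted p = 0.0146), a call that ended in 3 of 11 other settings (adjusted p from 0.00839 to 0.191). Probe sets of Kcnma1 disagreed in part, since 10 of 16 results of its other probe sets had the sign of the probe set used. With the mean over its probe sets the differences at days 7 and 14 were -0.16 and -0.08 and neither passed. At day 2 that mean gave -0.36, which passed. Beside these falls, 3 of 7 smooth muscle and pericyte markers and 2 of 6 fibroblast markers also fell in cast legs at day 2, and 1 smooth muscle marker rose. The summed smooth muscle signal was 8428 to 13378 in cast legs and 9599 to 15411 in control legs, and the summed fibroblast signal was 10207 to 19781 in cast legs and 11028 to 19362 in control legs. The log2 ratio of 3′ to 5′ beta-actin probe sets, which moves with RNA integrity, was higher in the cast leg in 7 of 25 animals, with a mean difference of -0.17 ± 0.35 (SD). The same ratio of Gapdh was higher in the cast leg in 15 of 25, with a mean difference of 0.01 ± 0.03 (SD). The part of these markers and of these ratios in the casting results was not tested.

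Inward rectifiers hold the resting potential, and of the 14 tested, 1 rose and 1 fell in cast legs at day 2, and 1 fell at day 7 and 1 at day 14. Among all genes 24.3%, 8.77% and 13.2% passed at these days in either direction. The inward rectifier that fell at each of the 3 days was Kcnj12, the Kir2.2 channel. Its signal was 73.5 at the lowest, 99.7 at the median and 157 at the highest in cast legs at day 2, against 113, 138 and 178 in control legs, and at day 14 it was 83.1, 98.6 and 118 in cast legs, against 109, 152 and 193 in control legs. The groups overlapped, yet the cast leg was lower in 9 of 9 animals at both of these days and in 6 of 7 at day 7. The log2 differences at days 2, 7 and 14 were -0.45 ± 0.12 (adjusted p = 0.00307), -0.40 ± 0.14 (adjusted p = 0.0478) and -0.58 ± 0.12 (adjusted p = 0.000493). The day 7 call ended in 6 of 11 other settings, over which the adjusted p ran from 0.00422 to 0.152, with the animals as a fixed block among them (adjusted p = 0.0831). The other named inward rectifiers, Kcnj11 (Kir6.2, the pore of the ATP-sensitive channel) and Kcnj2 (Kir2.1), passed at no cast day. Kcnj11 came nearest at day 14, with -0.27 ± 0.10 (adjusted p = 0.0536) and the cast leg lower in 8 of 9 animals.

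Subunits of the L-type calcium channel differed from one another in cast legs. Cacng1 encodes gamma1, the subunit that damps the calcium current of skeletal muscle. Its signal was 1261 at the lowest, 1616 at the median and 2081 at the highest in cast legs at day 2, against 921, 1152 and 1547 in control legs. At day 7 it was 997, 1425 and 2066 in cast legs, against 739, 870.3 and 1194 in control legs, and at day 14 it was 1081, 1177 and 1695 in cast legs, against 899, 974 and 1259 in control legs. The ranges overlapped, but the cast leg was higher in every one of 9, 7 and 9 animals with both legs. Cacng1 rose by 0.48 ± 0.11 (adjusted p = 0.000196), 0.65 ± 0.12 (adjusted p = 3.71e-05) and 0.33 ± 0.11 (adjusted p = 0.0285) on the log2 scale. The pore gene Cacna1s was at 0.03, 0.14 and -0.15 at the same days, and Cacnb1, the beta subunit that couples the pore to the calcium release channel, fell at day 14 only, by 0.35 ± 0.09 (adjusted p = 0.00287), lower in 9 of 9 animals. Cacna2d1, the alpha2delta subunit, rose at day 14 by 0.22 ± 0.08 (adjusted p = 0.0415), a call that ended with the animals as a fixed replicate block (adjusted p = 0.0621) and in 3 more of 11 other settings, over which the adjusted p ran from 0.000779 to 0.689. For Cacnb1 at day 14 the mean over its probe sets gave -0.11 (adjusted p = 0.651).

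**Figure D2:**
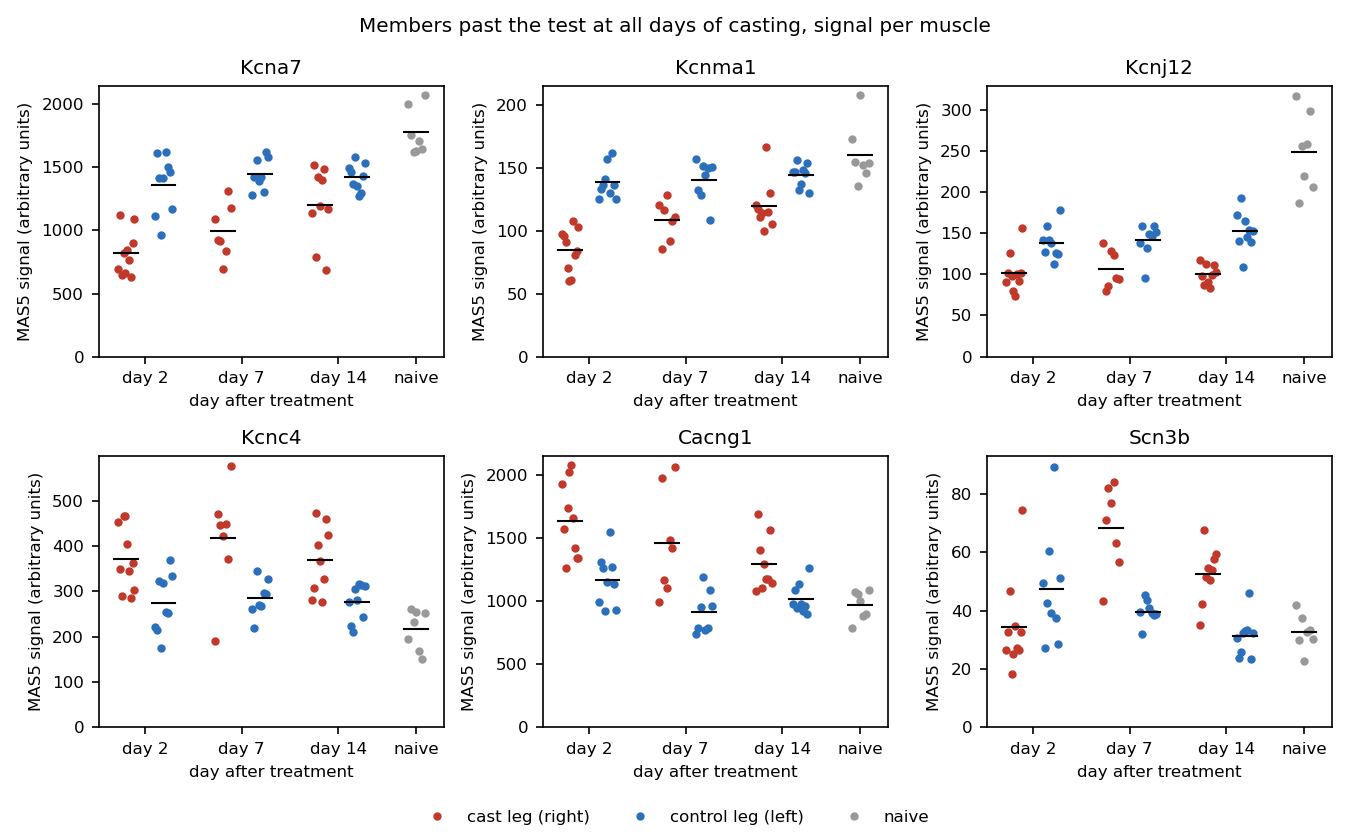
MAS5 signals (vertical axes, linear, arbitrary units) of Kcna7, Kcnma1, Kcnj12, Kcnc4, Cacng1 and Scn3b in cast legs, control legs and naive muscles by day. Each point is 1 muscle and each bar is the group mean. At day 2 the cast and control signals of Kcnma1 did not overlap, and Scn3b was below its control median at day 2 and above it at days 7 and 14.

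Of the sodium channel genes, Scn3b and Scn7a changed most in cast legs at the later days. Scn3b encodes the beta3 subunit, which tunes sodium channel gating. Its median signal was 29.9 in cast legs at day 2, against 42.5 in control legs. It was 71.1 in cast legs at day 7, against 39.4 in control legs, and 54.1 in cast legs at day 14, against 32.1 in control legs. The cast leg was lower in 7 of 9 animals at day 2, and higher in 6 of 7 at day 7 and in 9 of 9 at day 14. The log2 differences were -0.42 ± 0.14 (adjusted p = 0.0198), 0.70 ± 0.16 (adjusted p = 0.00132) and 0.69 ± 0.15 (adjusted p = 0.00038), and the day 2 call ended in 3 of 11 other settings, over which the adjusted p ran from 0.00291 to 0.118. The change between day 2 and day 14 was 1.11 ± 0.20 (adjusted p = 4.28e-05).

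Scn7a encodes Nax, a sodium channel relative that senses sodium concentration in glia. Its median signal was 82.6 in cast legs at day 2, against 84.9 in control legs. It was 92.7 in cast legs at day 7, against 75.0 in control legs, and 113 in cast legs at day 14, against 70.6 in control legs. It rose at day 14 by 0.68 ± 0.12 (adjusted p = 9.79e-06), higher in 9 of 9 animals, and its differences at days 2 and 7 were 0.04 ± 0.11 and 0.34 ± 0.13 (adjusted p = 0.083). Of 6 tested genes on a list of 9 Schwann cell and nerve markers, 1 rose at day 7 and 1 at day 14 in cast legs, and their summed signal at day 14 was 3012 to 4203 in cast legs and 2013 to 3099 in control legs. Their part in the Scn7a and Scn3b results was not tested.

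Kcnk6 (TWIK2), a tandem-pore channel that in mice carries potassium out of macrophages, fell at day 2 and rose at day 14. Its signal in cast legs at day 2 was 43.9 at the lowest, 50.2 at the median and 64.3 at the highest, against 59.99, 68.7 and 87.6 in control legs. At day 14 the values were 67.0, 84.2 and 102 in cast legs, against 50.5, 62.7 and 88.1 in control legs. The cast leg was the lower one in 8 of 9 animals at day 2 and the higher one in 9 of 9 at day 14. The log2 differences at days 2, 7 and 14 were -0.45 ± 0.11 (adjusted p = 0.000685), -0.03 ± 0.12 (adjusted p = 0.945) and 0.40 ± 0.11 (adjusted p = 0.0087). Kcne4, an accessory subunit that inhibits Kv1 channels, rose at day 14 by 0.58 ± 0.18 (adjusted p = 0.022), and its signal was 56.1 to 91.2 in cast legs and 40.9 to 52.9 in control legs, without overlap. Without 6 arrays whose low end was raised, this call of Kcne4 ended, and over 11 other settings its adjusted p ran from 0.000937 to 0.0865. Of 10 macrophage marker genes, 6 fell and none rose in cast legs at day 2, 2 rose at day 7, and 10 rose at day 14, with a summed signal of 3060 to 6627 in cast legs and 1610 to 3502 in control legs at day 14. The part of these markers in the Kcnk6 and Kcne4 results was not tested.

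The leg comparison within tenotomy animals asks how the tendon cut changed channel transcripts. Of the 14 tested genes of a set of 19 muscle channel genes, 10 rose and 0 fell in left legs at day 2, 11 rose and 1 fell at day 7, and 7 rose and 0 fell at day 14. Among all genes, 15.9%, 14.6% and 9.71% rose and 20.8%, 18.3% and 13.5% fell in left legs at these days. The named genes Cacna1s, Cacna2d1, Cacnb1, Clcn1, Scn4b, Kcnc1, Kcna7 and Kcng4, were higher in the left leg labelled tenotomy than in the right leg labelled control, Cacnb1 at days 2 and 7 and the others at all 3 days. Clcn5, Kcnab2, Kcnk6 and Scn7a were lower in the left leg at all 3 days. Cacng1 and Kcnma1, of the same set, passed at no day. In all, 37 of 106 channel genes passed at 1 or more days, against 48.6% of all genes, and 15 at all 3, against 15.5%. The 15 included Kcna7, Kcnc1, Kcnc4 and Kcng4 of the voltage-gated potassium channel pores, of which 4 rose and none fell in left legs at day 2, 5 rose and none fell at day 7, and 4 rose and 1 fell at day 14. For many of these genes 1 or both legs are also set against sham, since the labels and the design text differ on the operated leg.

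Cacna1s, the voltage sensor of excitation-contraction coupling, had signals of 2468, 2315, 2325, 2026 and 2643 in left legs labelled tenotomy at day 2, against 1204, 1509, 823, 1440 and 1229 in right legs labelled control. In sham legs of day 2 its signals were 2276, 1998 and 2257. The left legs overlapped the sham legs, and all 5 right legs lay below every sham leg. At day 14 the signals were 2526, 2780, 3016, 3128 and 2818 in left legs, against 2294, 2195, 1621, 1683 and 2045 in right legs, and sham legs ran from 1440 to 1966 with a median of 1766. By then the left legs stood above all right legs and all sham legs, and the right legs overlapped sham. The log2 difference of left to right legs was 0.95 ± 0.12 (adjusted p = 3.14e-10) at day 2, 0.51 ± 0.11 (adjusted p = 3.81e-05) at day 7 and 0.54 ± 0.13 (adjusted p = 0.000522) at day 14. Right legs against sham gave -0.84 ± 0.15 (adjusted p = 2.67e-06), -0.30 ± 0.11 (adjusted p = 0.0216) and 0.15 ± 0.12 (adjusted p = 0.346). Left legs against sham passed at day 14, with 0.69 ± 0.12 (adjusted p = 3.44e-06). The call of right legs against sham at day 7 ended with quantile normalization, where it was -0.10 (adjusted p = 0.473), and in 1 more of 10 other settings, over which the adjusted p ran from 0.0181 to 0.473.

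Scn4b and Clcn1 followed the same order at day 2 and day 14. Scn4b, the sodium channel beta4 subunit, had signals of 1790.0, 2302, 2164, 1956 and 2185 in left legs at day 2, against 1184, 1517, 1089, 1363 and 1079 in right legs, and 2082, 1841 and 2112 in sham legs. Clcn1, the chloride channel whose loss causes myotonia, had signals of 399, 471, 389, 343 and 510.4 in left legs at day 2, against 217, 313, 223, 275 and 212 in right legs, and 450, 337 and 484 in sham legs. For both genes every right leg lay below every left leg and every sham leg at day 2. The log2 difference of left to right legs was 0.74 ± 0.11 (adjusted p = 3.49e-09) for Scn4b and 0.76 ± 0.15 (adjusted p = 7.2e-06) for Clcn1. At day 14 they were 0.39 ± 0.11 (adjusted p = 0.00333) and 0.42 ± 0.15 (adjusted p = 0.0277), and right legs against sham were at 0.05 and 0.16, which did not pass. At day 14 left legs exceeded sham by 0.44 ± 0.10 (adjusted p = 0.00047) for Scn4b and 0.58 ± 0.14 (adjusted p = 0.000968) for Clcn1. The Clcn1 call of left against right legs at day 14 ended without right leg replicate 3 (adjusted p = 0.118), right leg replicate 4 (adjusted p = 0.0511) or left leg replicate 3 (adjusted p = 0.113), and over its 21 other settings the adjusted p ran from 0.0074 to 0.118. The Scn4b call at day 14 ended with quantile normalization (0.20, adjusted p = 0.103), and over its 21 other settings the adjusted p ran from 0.00225 to 0.103.

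Accessory subunits of the L-type channel were also higher in left legs at day 2. Cacna2d1 had signals of 2439, 2757, 2915, 2252 and 2810.0 in left legs at day 2, against 1671, 1647, 1144, 2003 and 1481 in right legs, and 2524, 2211 and 2520.0 in sham legs, with the right legs below both. The left leg exceeded the right by 0.74 ± 0.10 (adjusted p = 2.06e-09), 0.38 ± 0.09 (adjusted p = 0.000238) and 0.31 ± 0.10 (adjusted p = 0.0209) on the log2 scale at days 2, 7 and 14. The day 7 call ended with the mean over probe sets (0.17, adjusted p = 0.0917). The day 14 call ended with the animals as a fixed block (adjusted p = 0.107), without right leg replicate 3 of that day (adjusted p = 0.0729) and in 2 more of 21 other settings, over which the adjusted p ran from 0.00729 to 0.516. Cacnb1 exceeded by 0.77 ± 0.12 (adjusted p = 3.12e-08) at day 2 and 0.29 ± 0.10 (adjusted p = 0.0154) at day 7, and Cacng6, a gamma subunit of skeletal muscle, by 0.55 ± 0.13 (adjusted p = 0.000349) and 0.49 ± 0.11 (adjusted p = 0.000187). The Cacnb1 call at day 7 ended in 2 of 11 other settings, over which the adjusted p ran from 0.0119 to 0.0854. Cacnb1 had its highest mean of all groups in left legs at day 2. No calcium channel beta subunit passed in right legs against sham at that day. Cacng1, which rose under the cast, was at 0.35 ± 0.15 (adjusted p = 0.0531), 0.06 and 0.06 and passed at no day of this comparison. Of 24 called results of Cacna2d1 that its other probe sets could be read against, 17 had the same sign there. Over the 15 named genes with another passing probe set, 114 of 140 did.

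**Figure D3:**
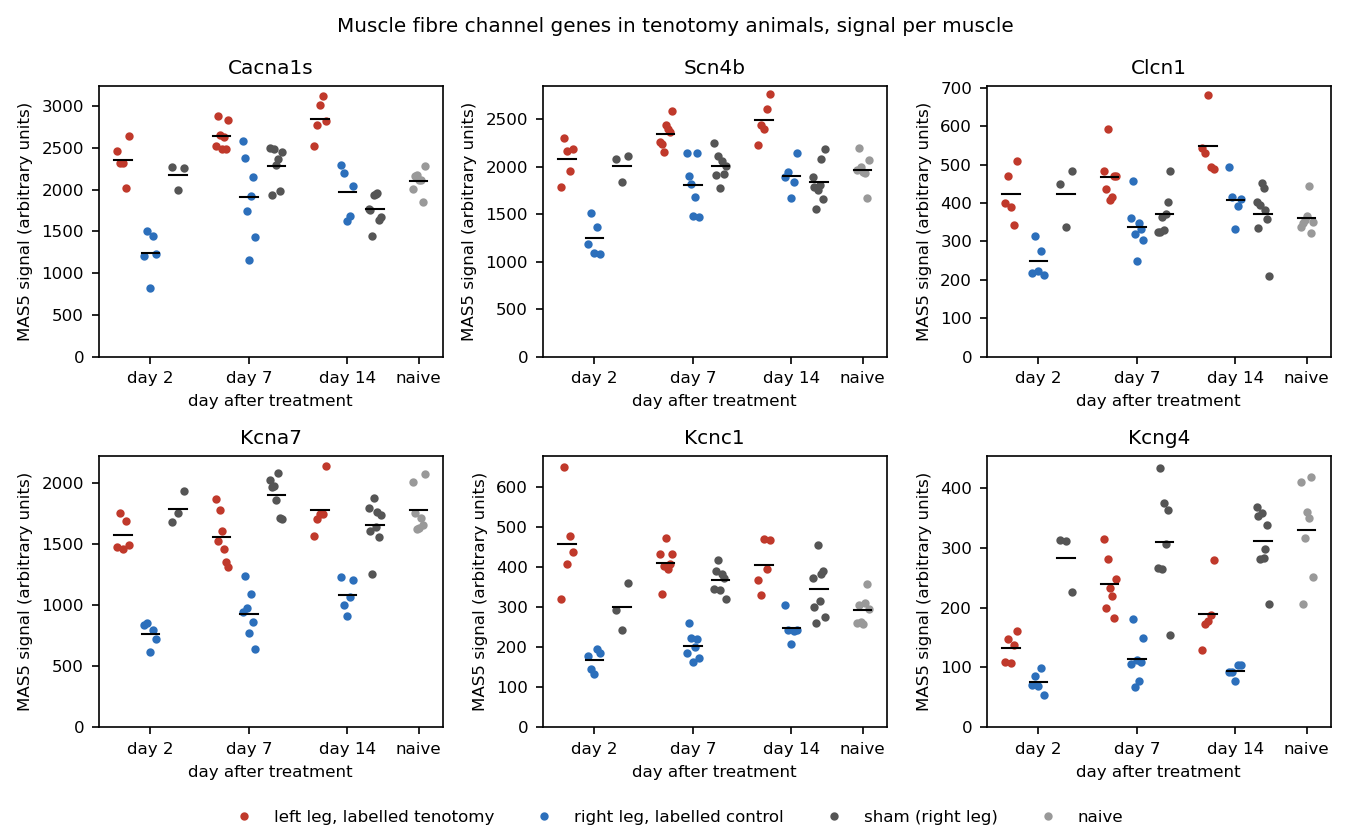
MAS5 signals (vertical axes, linear, arbitrary units) of Cacna1s, Scn4b, Clcn1, Kcna7, Kcnc1 and Kcng4 in left legs labelled tenotomy, right legs labelled control, sham legs and naive muscles by day. Each point is 1 muscle and each bar is the group mean. At day 2 the right legs lay below the left and sham legs for all 6 genes, and Kcng4 was below sham in the left legs too.

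Among the potassium channels of the fibre, Kcna7 had signals of 1473, 1754, 1458, 1685 and 1487 in left legs at day 2, against 838, 851, 617, 797 and 722 in right legs, and 1676, 1750.0 and 1929 in sham legs. At day 14 they were 1563, 1704, 1740.0, 1746 and 2137 in left legs, against 1226, 995, 906, 1066 and 1199 in right legs, while sham legs ran from 1249 to 1874. Right legs lay below every left leg and every sham leg at these days and at day 7. The log2 differences of left to right legs were 1.04 ± 0.14 (adjusted p = 2.62e-10), 0.76 ± 0.12 (adjusted p = 3.62e-08) and 0.72 ± 0.14 (adjusted p = 2.11e-05). Right legs against sham gave -1.23 ± 0.17 (adjusted p = 1.01e-09), -1.06 ± 0.12 (adjusted p = 1.74e-12) and -0.61 ± 0.13 (adjusted p = 5.06e-05). Kcnc1 had signals of 319, 650, 407, 478 and 436 in left legs at day 2, against 177, 146, 132, 196 and 184 in right legs, and 292, 243 and 361 in sham legs, with all right legs lowest. Its left legs exceeded right legs by 1.41 ± 0.18 (adjusted p = 4.9e-11), 1.01 ± 0.15 (adjusted p = 1.67e-08) and 0.70 ± 0.18 (adjusted p = 0.00145). With the mean over its probe sets the Kcnc1 difference was 0.81 at day 2, and at day 14 it was 0.39 and did not pass (adjusted p = 0.0523). Against sham, right legs were lower, at -0.82, -0.85 and -0.45 on the log2 scale, all passing, but the day 14 call ended without right leg replicate 3 (adjusted p = 0.0763) and in 1 more of 15 other settings, over which the adjusted p ran from 0.0077 to 0.122.

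Kcng4 was low in both legs of the tenotomy animals at day 2, with signals of 108, 147, 107, 137 and 160.3 in left legs, against 69.8, 86.2, 68.1, 99.6 and 54.5 in right legs, and 314, 311 and 226 in sham legs. Its left legs exceeded right legs by 0.78 ± 0.20 (adjusted p = 0.000859), 1.09 ± 0.17 (adjusted p = 9.29e-08) and 0.95 ± 0.20 (adjusted p = 0.000157). Right legs lay below sham, at -1.86 ± 0.24 (adjusted p = 4.07e-10), -1.41 ± 0.18 (adjusted p = 8.91e-11) and -1.67 ± 0.19 (adjusted p = 3.03e-12), without overlap at days 2 and 14. Left legs were also below sham, at -1.08 ± 0.24 (adjusted p = 0.00115) at day 2 and -0.72 ± 0.19 (adjusted p = 0.00279) at day 14. Kcnc4 behaved otherwise, since at day 2 its signals were 354, 411, 323, 372 and 476 in left legs, against 258, 272, 191, 267 and 193 in right legs, and 215, 194 and 245 in sham legs. There the left legs stood above all right and sham legs, by 0.71 ± 0.18 (adjusted p = 0.00054) over right legs and 0.81 ± 0.21 (adjusted p = 0.0064) over sham, and right legs overlapped sham. Right legs fell below sham at day 7, with -0.68 ± 0.16 (adjusted p = 0.000162), and at day 14, with -0.45 ± 0.17 (adjusted p = 0.0277). The day 14 call ended without right leg replicate 1 (adjusted p = 0.115), without right leg replicate 3 (adjusted p = 0.0709) and in 1 more of 15 other settings, over which the adjusted p ran from 0.00852 to 0.115.

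Kcnj12 was higher in left legs at day 2 by 0.88 ± 0.17 (adjusted p = 6.45e-06) and at day 7 by 0.41 ± 0.14 (adjusted p = 0.0158), and at day 14 by 0.33 ± 0.17 (adjusted p = 0.161), which did not pass. The day 7 call ended with only the groups compared (adjusted p = 0.112). Kcnj11, which links fibre excitability to energy state, was higher in left legs by 0.41 ± 0.13 (adjusted p = 0.00832), 0.41 ± 0.11 (adjusted p = 0.002) and 0.46 ± 0.13 (adjusted p = 0.00604), and its right legs were below sham, at -0.33 at day 7 and -0.39 at day 14. Without right leg replicate 3 of day 2 the Kcnj11 difference at day 2 was 0.33 (adjusted p = 0.0546), and over its 21 other settings the adjusted p ran from 0.00249 to 0.0546. The mean over probe sets ended the Kcnj11 calls at day 14, with adjusted p = 0.0531 between legs and 0.0573 for right legs against sham, and the sham call at day 7 ended in 2 of 10 other settings, with adjusted p up to 0.0519. Kcnn1 and Kcnn2, which encode small-conductance calcium-activated channels, were chosen after their values were seen. Left legs exceeded right legs by 0.43, 0.55 and 0.71 for Kcnn1 and by 0.97, 0.85 and 0.52 for Kcnn2 at days 2, 7 and 14, all passing. Right legs against sham were at -0.67, -0.98 and -0.68 for Kcnn1, all passing, and at -0.99, -0.63 and -0.01 for Kcnn2, of which the last did not pass.

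A second group of channel genes was high in the right leg labelled control at day 2. Clcn5, an endosomal chloride-proton exchanger, had signals of 45.9, 70.5, 115, 69.2 and 25.9 in left legs at day 2, against 280, 247, 315, 310.0 and 350 in right legs, and 85.8, 74.1 and 37.4 in sham legs. Every right leg lay above every left and sham leg. Right legs exceeded sham by 2.19 ± 0.42 (adjusted p = 9.01e-06) at day 2, 1.37 ± 0.31 (adjusted p = 0.000114) at day 7 and 1.05 ± 0.33 (adjusted p = 0.00722) at day 14. Left legs differed from right legs by -2.27 ± 0.35 (adjusted p = 3.04e-08), -0.97 ± 0.29 (adjusted p = 0.0054) and -1.27 ± 0.35 (adjusted p = 0.00369). With the mean over probe sets the difference between legs was -1.38, -0.61 and -0.48, of which the last did not pass (adjusted p = 0.062), and right legs exceeded sham by 0.98 at day 2 and 0.69 at day 7. At day 14 the right legs spread from 70.7 to 285 and overlapped both other groups, and the call against sham ended without right leg replicate 5 (adjusted p = 0.0557) and with the mean over probe sets (adjusted p = 0.161), over 15 other settings with adjusted p from 0.00118 to 0.161.

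Kcnab2, a cytoplasmic beta subunit of Kv1 channels, had signals of 2.81, 11.1, 2.9, 5.64 and 9.67 in left legs at day 2, against 42.9, 42.1, 72.4, 36.6 and 62.6 in right legs, and 6.96, 10.6 and 4.93 in sham legs. The left and sham signals lay at or under the filter level of the arrays, which ran from 9.65 to 17.8, and the right legs all stood above it. With lower signals raised to that level, the day 2 difference was 1.73 for right legs against sham and -1.68 for left against right legs. So treated, the differences at days 7 and 14 were 0.57 and 0.48 against sham, and -0.33 and -0.38 between legs. Right legs exceeded sham by 2.26 ± 0.37 (adjusted p = 2.25e-07), 0.85 ± 0.27 (adjusted p = 0.00617) and 0.76 ± 0.29 (adjusted p = 0.0287). At day 14 the call ended without right leg replicate 1 (adjusted p = 0.0949), replicate 2 (adjusted p = 0.0774) or replicate 4 (adjusted p = 0.102), and over 15 other settings the adjusted p ran from 0.00385 to 0.102. Left legs differed from right legs by -2.45 ± 0.30 (adjusted p = 3.37e-11) at day 2, -0.77 ± 0.26 (adjusted p = 0.0122) at day 7 and -1.03 ± 0.30 (adjusted p = 0.00703) at day 14, and the call at day 14 ended with the animals as a fixed block (adjusted p = 0.0594) and in 1 more of 21 other settings, over which the adjusted p ran from 0.00119 to 0.0594.

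Kcnk6 had signals of 51.1, 70.1, 47.4, 49.5 and 38.5 in left legs at day 2, against 228, 167, 210, 146 and 187 in right legs, and 57.6, 70.7 and 67.1 in sham legs. Right legs stood above all left and sham legs at each of the 3 days. They exceeded sham by 1.46 ± 0.18 (adjusted p = 5.89e-11), 1.03 ± 0.13 (adjusted p = 1.4e-10) and 0.70 ± 0.14 (adjusted p = 2.35e-05), and left legs differed from right legs by -1.80 ± 0.15, -0.92 ± 0.13 and -0.94 ± 0.15 (adjusted p = 3.72e-19, 1.86e-09 and 4.73e-07). Kcnn4, the intermediate-conductance calcium-activated channel of lymphocytes and macrophages, had signals of 57.8, 26.6, 57.9, 35.3 and 52.2 in right legs at day 2, against 8.91, 9.84 and 13.0 in sham legs. All right legs lay above all sham legs, while left legs, at 15.2 to 38.2, overlapped the right. Right legs exceeded sham by 1.73 ± 0.41 (adjusted p = 0.000306), 1.01 ± 0.30 (adjusted p = 0.00359) and 0.92 ± 0.32 (adjusted p = 0.0161). The call at day 14 ended without right leg replicate 3 (adjusted p = 0.0812) and in 2 more of 15 other settings, over which the adjusted p ran from 0.00146 to 0.0812. Left legs passed against sham as well for Kcnn4 at day 14, by 1.05. Right minus left was then -0.10 ± 0.34, which did not pass.

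Scn7a had signals of 69.8, 71.5, 70.8, 64.0 and 43.2 in left legs at day 2, against 150.3, 137, 212, 107 and 156 in right legs, and 63.2, 62.2 and 46.9 in sham legs, and at that day all right legs lay above all others. Right legs exceeded sham by 1.33 ± 0.19 (adjusted p = 6.16e-09), 1.16 ± 0.14 (adjusted p = 1.06e-11) and 0.65 ± 0.15 (adjusted p = 0.000188). Kcne4 exceeded sham in right legs by 1.33 ± 0.30 (adjusted p = 0.000153), 1.48 ± 0.22 (adjusted p = 1.2e-08) and 0.86 ± 0.23 (adjusted p = 0.00182), with no overlap at any day. Its signals at day 14 were 35.6, 38.0, 28.3, 31.6 and 35.2 in left legs, against 54.6, 52.1, 96.4, 67.1 and 57.2 in right legs, so that both right legs and left legs formed separate ranges. Left legs differed from right legs by -1.34, -1.42 and -0.99 at day 7 for Scn7a, Kcne4 and Kcnn4, all passing.

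**Figure D4:**
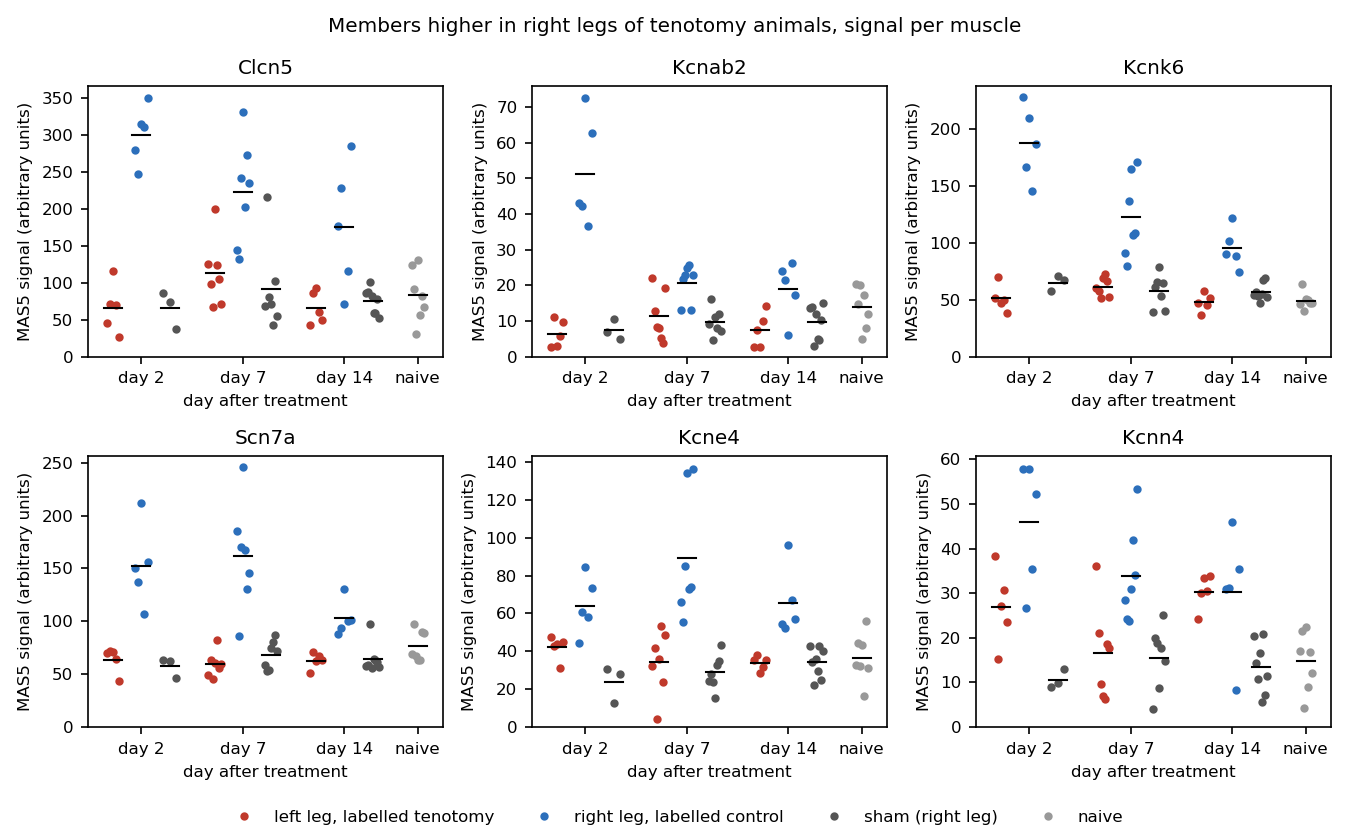
MAS5 signals (vertical axes, linear, arbitrary units) of Clcn5, Kcnab2, Kcnk6, Scn7a, Kcne4 and Kcnn4 in left legs labelled tenotomy, right legs labelled control, sham legs and naive muscles by day. Each point is 1 muscle and each bar is the group mean. At day 2 every right leg stood above every sham leg for all 6 genes.

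Marker genes of other cells moved in the same muscles. All 10 macrophage markers tested rose in right legs against sham at days 2 and 7 and 6 of 10 at day 14, and their summed signal at day 2 was 790 to 1631 in left legs, 11371 to 14442 in right legs and 1232 to 2158 in sham legs. Of 8 muscle fibre markers, 8 fell in right legs against sham at day 2, 7 at day 7 and 1 at day 14, with a summed signal at day 2 of 89579 to 104526 in left legs, 53479 to 78340 in right legs and 99104 to 149747 in sham legs. Of 6 fibroblast markers, 1, 5 and 4 rose in right legs against sham at days 2, 7 and 14, and of 7 smooth muscle and pericyte markers, 5 rose at each day. Neutrophil markers rose in 2, 1 and 1 of 5 cases, endothelial markers fell in 3, 3 and 4 of 6 and rose in 0, 1 and 1, fat cell markers fell in 0, 2 and 1 of 3, and none of 6 lymphocyte markers changed. The 3′ to 5′ beta-actin log2 ratio was higher in the right than in the left leg in 15 of 16 tenotomy animals, by 0.63 ± 0.44 (SD). The same ratio of Gapdh was higher in the right leg in 9 of 16, by 0.02 ± 0.08 (SD). The part of these markers and of these ratios in the channel results of the tenotomy animals was not tested. Between the legs themselves, macrophage markers were lower in left legs in 10, 10 and 8 of 10 cases at days 2, 7 and 14, fibroblast markers were lower in 5, 6 and 5 of 6, and fibre markers were higher in 5, 4 and 0 of 8.

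At the later days of tenotomy other genes were high in right legs, against left legs, sham legs or both. Cacna1g, the T-type channel Cav3.1, was lower in left than in right legs at day 14, with -1.91 ± 0.36 (adjusted p = 1.46e-05). It exceeded sham in right legs by 1.45 ± 0.31 (adjusted p = 6.68e-05) at day 7 and 1.71 ± 0.34 (adjusted p = 1.47e-05) at day 14. At day 7 its left legs also passed against sham, at 0.98 (0.66 with lower signals raised to the filter level). Right minus left of Cacna1g was 0.46 ± 0.30 at day 7 and did not pass. Kcne1l, an accessory subunit of voltage-gated potassium channels, was lower in left legs at day 7 (-1.52 ± 0.32, adjusted p = 5.93e-05) and day 14 (-1.18 ± 0.38, adjusted p = 0.0159). It exceeded sham in right legs at both days, by 1.42 ± 0.36 (adjusted p = 0.000753) at day 14. Sham legs of day 14 had the lowest mean of all groups for Kcne1l, and they were themselves below naive muscle, as given further on. The call between legs at day 14 ended without right leg replicate 1, left leg replicate 3 or left leg replicate 4, with adjusted p up to 0.0957. Kcnd1, the Kv4.1 channel, and Cacna1d, the L-type pore Cav1.3, were lower in left legs at day 14, with -1.44 ± 0.37 (adjusted p = 0.00169) and -1.42 ± 0.40 (adjusted p = 0.00454). The mean over probe sets ended the Kcnd1 and Cacna1d calls, at -0.54 (adjusted p = 0.127) and -0.68 (adjusted p = 0.102). Several of these genes lay near the filter level, which a signal had to exceed to count as measured. No left leg exceeded it for Cacna1g at day 14, and 1 of 5 left legs did for Kcne1l, Kcnd1 and Cacna1d. With every lower signal raised to that level, the day 14 difference between legs was -1.10 for Cacna1g, -0.39 for Kcne1l, -0.56 for Kcnd1 and -0.51 for Cacna1d. Kcne1l so treated was at -0.60 between legs at day 7. Right legs against sham, so treated at days 7 and 14, were at 0.768 and 0.585 for Kcne1l and at 1.12 and 1.03 for Cacna1g. Clcn2, an inwardly rectifying chloride channel, passed in right legs against sham at day 7 (adjusted p = 0.00172) and day 14 (adjusted p = 0.00137). No sham leg exceeded the filter level for Clcn2, and 1 of 7 right legs did at day 7 and 3 of 5 at day 14. With lower signals raised to that level the differences were 0.13 and 0.46 on the log2 scale. Left legs also passed against sham for Clcn2 at day 14, at 0.29 so treated. Right minus left of Clcn2 was 0.38 ± 0.35 at day 14 and did not pass. Clcn4, an endosomal exchanger like Clcn5, moved little, at 0.25 ± 0.07 (adjusted p = 0.00279) in left against right legs at day 14. Kcnk13, a tandem-pore channel known from microglia, had signals of 3.12, 4.01, 8.47, 8.38 and 4.83 in left legs at day 2, against 19.1, 16.4, 20.5, 24.3 and 28.1 in right legs. All 5 left legs lay under the filter level and all right legs above it, a difference of at least 0.59 on the log2 scale with the left legs lower (adjusted p = 0.00064). At day 14 Kcnk13 passed with the left legs higher (adjusted p = 0.0062), but no right leg and 3 of 5 left legs exceeded the filter level, and with lower signals raised to it the difference was 0.07. Kcnj2 was lower in left legs at day 7 (-0.84 ± 0.33, adjusted p = 0.0412, and -0.38 with lower signals raised to the filter level), a call that ended in 6 of 10 other settings, over which the adjusted p ran from 0.0247 to 0.117, the fixed block of animals among them (adjusted p = 0.0542).

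Because the cast was on the right leg and the design text names the right leg as operated, the models were also compared as right minus left. The difference between them was tested. Macrophage markers differed in the same comparison, higher in tenotomy in 10, 9 and 1 of 10 cases at days 2, 7 and 14, as did 5 of 6 fibroblast markers at each day, and their part was not tested. At day 2, 24 of 106 channel genes differed between the models (8 higher and 16 lower in tenotomy), against 34.1% of all genes, and at day 7, 16 differed (5 and 11), against 18.8%. At day 14, 10 differed (3 and 7), against 8.14%, a count that was 4 with the animals as a fixed replicate block and 6 without right leg replicate 3 of that day. Kcnc4 went opposite ways, with right minus left of -0.71 in tenotomy and 0.45 in casting at day 2, -0.72 in tenotomy and 0.49 in casting at day 7, then -0.93 in tenotomy and 0.40 in casting at day 14. The difference between the models was -1.16 ± 0.22 (adjusted p = 5.54e-06), -1.21 ± 0.21 (adjusted p = 2.94e-06) and -1.33 ± 0.22 (adjusted p = 5.73e-06). Kcnk6 was at 1.80 in tenotomy and -0.45 in casting at day 2, a difference of 2.25 ± 0.18 (adjusted p = 3.73e-19). Cacna1s was at -0.95 in tenotomy and 0.03 in casting at day 2, a difference of -0.98 ± 0.15 (adjusted p = 8.79e-08), and Cacng1 was at -0.35 and 0.48, a difference of -0.83 ± 0.18 (adjusted p = 9.57e-05). Kcna7, by contrast, was lower in the right leg in both models, at -1.04 in tenotomy and -0.74 in casting at day 2. Its difference between the models passed at no day. Under the sample labels, which put the tenotomy on the left leg, the sign of each tenotomy value turns. Kcnc4 was then higher in the treated leg of both models at each day, and Kcna7 went opposite ways. The difference between the models was not tested in that form.

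Within tenotomy animals the difference between left and right legs was smaller or larger at day 14 than at day 2 in 7 of 106 channel genes (3 higher and 4 lower at day 14), against 8.15% of all genes. Leaving out 1 array at a time gave 3 to 8, and the fixed replicate block gave 3. Cacna1g changed by -2.16 ± 0.50 (adjusted p = 0.00167) and Kcnk6 by 0.85 ± 0.21 (adjusted p = 0.00347), while 9 of 10 macrophage markers also changed, all higher.

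**Figure D5:**
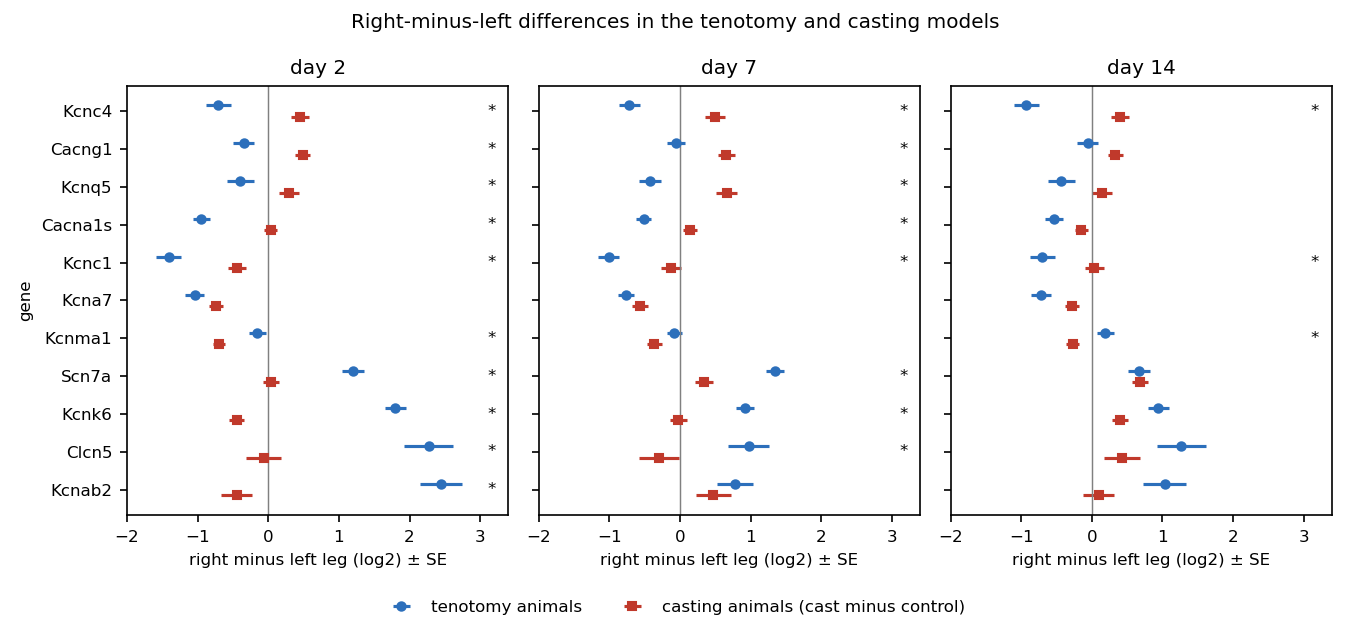
Right-minus-left log2 differences (horizontal axis) of 11 channel genes at days 2, 7 and 14, in tenotomy animals (circles) and casting animals (squares), with bars of 1 SE. An asterisk marks a difference between the models with an adjusted p below 0.05. Kcnc4 lies on opposite sides of 0 in the 2 models at each day. Under the sample labels, which put the tenotomy on the left leg, the sign of the tenotomy values turns.

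Left legs of tenotomy animals differed from sham in fewer channel genes. At day 2, 6 of 106 passed (5 higher and 1 lower in left legs), against 9.99% of all genes, and leaving out 1 array at a time gave 2 to 8, the fewest without sham replicate 2. At day 7, 13 passed (9 and 4), against 19.1%, and at day 14, 15 passed (13 and 2), against 20.7%. The 13 that were higher at day 14 included Cacna1s, Clcn1, Scn4b, Kcnc4 and Cacna2d1, the last by 0.39 ± 0.10 (adjusted p = 0.00165). Kcnma1 was lower in left legs than in sham at day 7, at -0.40 ± 0.11 (adjusted p = 0.00482), and at day 14, at -0.40 ± 0.12 (adjusted p = 0.00904). Its probe sets disagreed in part. With the mean over them, its right legs against sham turned from -0.49 to 0.43 at day 7, and left legs are not given that way. The tenotomy and sham animals are separate cohorts, so cohort and surgery cannot be told apart here. Smooth muscle and pericyte markers were higher in left legs than in sham in 5 of 7 cases at each day, although their summed signals overlapped. Endothelial markers were lower in 3, 4 and 4 of 6 cases. Muscle fibre markers were lower in 5 of 8 cases at day 7, with a summed signal of 53238 to 114331 in left legs and 88226 to 151604 in sham legs. At day 14, 4 of 10 macrophage and 4 of 6 fibroblast markers were lower, with a summed macrophage signal of 957 to 1395 in left legs and 1312 to 2128 in sham legs. The 3′ to 5′ beta-actin ratio had medians of -0.90, -0.29 and -0.63 on the log2 scale in left legs, against -1.34, -1.26 and -1.08 in sham legs. For Gapdh the medians were -0.27, -0.28 and -0.23 in left legs, against -0.18, -0.18 and -0.2 in sham legs. The part of these values in the left leg results was not tested.

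The uncast legs of casting animals differed from naive muscle in 34 of 106 channel genes (22 higher and 12 lower in uncast legs, mean of the 3 days), against 32.6% of all genes. Kcng4 had medians of 134, 175 and 178 in uncast legs at days 2, 7 and 14, against 349 in naive muscle, and was lower, at -0.98 ± 0.14 (adjusted p = 1.65e-08). Kcnj12 had medians of 138, 148 and 152 in uncast legs, against 256 in naive muscle, and was lower, at -0.77 ± 0.12 (adjusted p = 9.17e-08). For both genes, at each day, the uncast median lay between the cast and the naive median. Kcna7 was lower in uncast legs, at -0.33 ± 0.10 (adjusted p = 0.00385), and Kcnj11 higher by 0.51 ± 0.09 (adjusted p = 3.95e-06). Kcnj2 had medians of 17.9, 23.4 and 13.3 in uncast legs, against 1.52 in naive muscle, and passed with uncast legs higher (adjusted p = 1.09e-06). The filter level was exceeded in 21 of 26 uncast and 1 of 7 naive muscles, and with lower signals raised to it the difference was 0.44. In the same comparison 7 of 8 muscle fibre markers were lower in uncast legs, and 9 of 10 macrophage markers, 4 of 6 Schwann cell and nerve markers and 5 of 7 smooth muscle and pericyte markers were higher, with a summed macrophage signal of 1436 to 5627 in uncast legs at day 2 and 1291 to 1735 in naive muscle. The beta-actin ratio had medians of -0.77, -0.43 and -0.29 in uncast legs at days 2, 7 and 14, against -1.18 in naive muscle. For Gapdh the medians were -0.28, -0.27 and -0.29 in uncast legs, against -0.19 in naive muscle. The part of these values was not tested, and cohort, leg side and casting of the other leg cannot be told apart.

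Few channel genes, and few genes in all, differed between sham legs and naive muscle, with only 3 sham muscles at day 2. Against naive muscle no channel gene passed in sham legs at day 2 or day 7 with limma, where 0% and 0.63% of all genes did, although 11 and 16 channel genes had an unadjusted p below 0.05. At day 14, 2 of 106 passed, against 2.26% of all genes. They were Kcna5, the Kv1.5 channel, at -0.79 ± 0.17 (adjusted p = 0.00194), and Kcne1l, at -1.20 ± 0.33 (adjusted p = 0.0244), and Kcna5 was named because it passed here.

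Other genes of excitation and calcium release were taken from a list of 45, of which 35 were tested. Those named with values below fall outside the rule for the named channel genes and were picked from the list. In cast legs, 6 rose and 9 fell at day 2, 4 rose and 4 fell at day 7, and 2 rose and 5 fell at day 14. Among all genes, 11%, 4.22% and 7.17% rose and 13.3%, 4.55% and 6.04% fell at these days. In left legs labelled tenotomy against right legs, 15 rose and 2 fell at day 2, 16 rose and 0 fell at day 7, and 6 rose and 2 fell at day 14. The shares of all genes there were 15.9%, 14.6% and 9.71% higher and 20.8%, 18.3% and 13.5% lower. In right legs against sham, 3 rose and 14 fell at day 2, 5 rose and 15 fell at day 7, and 6 rose and 7 fell at day 14. Here the shares of all genes were 19.6%, 23.5% and 20.6% higher and 15.5%, 17.7% and 15.3% lower. Casq2, a calcium-binding protein of the store, fell in cast legs by 1.16, 1.51 and 0.95 on the log2 scale. Jph2, which holds the tubule to the store, was at -0.62, -0.37 and -0.31 in cast legs, at 1.25, 0.96 and 0.61 in left against right legs, and at -1.20, -1.17 and -0.58 in right legs against sham, all passing. Ryr1, the calcium release channel, passed at no cast day, and was at 0.66, 0.37 and 0.20 in left against right legs, of which the first 2 passed. Chrna1, a subunit of the acetylcholine receptor of the endplate, rose in cast legs by 0.66, 0.66 and 0.58, and Chrnb1 by 0.30, 0.80 and 0.87. At day 14 these were the only 2 genes of the list that rose in cast legs.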

How the data were processed

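Gastrocnemius RNA (Trizol, then RNeasy) was made into biotin-labelled cRNA from 6 µg and hybridised to 1 Affymetrix mouse array per muscle, per the labels' protocols. The authors deposited MAS5 signal values, an intensity per probe set on a linear scale, made with MAS5 and GCOS per the submitters' processing notes, with versions not given in the sources used here. Of 45101 probe sets, 64 were array controls, 34958 list 1 gene, 932 several and 9211 none, and 34754 matched RefSeq. Array medians ran from 16.1 to 26.4, and no 2 arrays were identical.

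From there, each gene's probe set of highest mean signal was kept, genes above the array's 40th percentile on at least 5 arrays were tested, and 3.982 (the 20th percentile of all signals) was added before log2. Limma 3.58.1 (R 4.3.3) fitted 16 group means and took each mouse as a random effect (shared correlation 0.0964), with a mean-variance trend. Benjamini-Hochberg adjustment ran over 16029 genes in each of 21 comparisons. The scripts were tested on simulated data. Tables and plots used Python 3.11.15, pandas 2.3.3 and matplotlib 3.10.9.

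The pairing of legs comes from the animal numbers in the labels, 25 casting and 16 tenotomy animals with both legs. The 2 legs of an animal deviated from their group means with a mean correlation of 0.066 in casting and 0.062 in tenotomy.

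The members, the excitation list and the cell marker lists were chosen with earlier results of these data known. Named genes were the 14 tested ones of a set of 19 muscle channel genes, and, in each of 9 comparisons (6 between legs, 3 of right tenotomy-animal legs with sham), the 5 channel genes with the largest passing difference, between legs only with the same sign in every animal. Genes outside this rule are named as such. P-values rest on the spread between muscles of the same group, pooled over all groups, with the mouse as a random effect. Alternatives covered the pseudocount, the filter, quantile normalization, the mean over probe sets, array weights, the block, only the groups compared, leaving out 6 arrays with a raised low end (chosen after seeing the data), and leaving out each replicate in groups of 2 to 5.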

Additional observations from a re-analysis of the deposited data

Results flagged for a closer look

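Single muscles stood apart from the rest of their group for 13 named channel genes, in 15 of 221 groups examined, which is 6.79%, where chance gives about 1 in 20. In right legs labelled control at day 14, Cacna1d was lowest in replicate 3 at 10.9 against 24.5 to 32.1 in the others, Cacng6 was lowest in replicate 2 at 318, Kcnn4 was lowest in replicate 4 at 8.31, and Kcnj11 was highest in replicate 1 at 592. In left legs labelled tenotomy, Cacna1d was highest at 21.4 in replicate 3 of day 14, Kcne4 was lowest at 4.12 in replicate 3 of day 7, and Scn7a was lowest at 43.2 in replicate 5 of day 2. In the casting model, Kcnc4 was lowest at 190 in cast replicate 1 of day 7, Kcnj12 was lowest at 95.3 in control replicate 3 of day 7, and Kcnq5 was lowest at 40.2 in control replicate 5 of day 7. In sham legs, Cacna2d1 was lowest at 2213 and Kcnma1 at 115 in replicate 7 of day 7. At day 14 Kcna7 was lowest at 1249 and Scn7a highest at 97.8 in sham replicate 3, and Kcng4 was lowest at 206 in sham replicate 8.

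The difference between legs changed between day 2 and day 14 in some genes, tested as an interaction with limma and given as day 14 minus day 2 on the log2 scale. In the casting model the change was 0.46 for Kcna7, 0.43 for Kcnma1, 0.84 for Kcnk6, 1.11 for Scn3b and 0.64 for Scn7a. In the tenotomy model it was -0.44 for Cacna2d1, -0.49 for Cacnb1, -2.16 for Cacna1g, 1.42 for Kcnab2, 2.66 for Kcnk13 and 0.85 for Kcnk6. The adjusted p of these tests ran up to 0.0489. The calls of Cacna2d1 and Cacnb1 in the tenotomy model each ended in 21 of 31 other settings, with adjusted p up to 0.192 for Cacna2d1 and 0.167 for Cacnb1, and 15 of the 21 for Cacna2d1 and 16 for Cacnb1 left out 1 array. The call of Kcnab2 ended in 10 of 31, with adjusted p up to 0.0899. The signals of Kcnk13 lay mostly under the filter level, so the size of its change was not measured.

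The right-minus-left difference of tenotomy animals differed from that of casting animals, also tested as an interaction. At day 2 the difference between the models was -0.85 for Cacna2d1, -0.68 for Cacnb1, -0.83 for Cacng1, -0.98 for Cacna1s, -0.71 for Clcn1, 2.34 for Clcn5, -0.97 for Kcnc1, -1.16 for Kcnc4, 1.16 for Kcnd1, -0.69 for Kcnq5, 2.89 for Kcnab2, -0.43 for Kcnj11, 0.54 for Kcnma1, 1.76 for Kcnk13, 2.25 for Kcnk6, -0.70 for Scn4b and 1.15 for Scn7a. Of these, the call of Kcnd1 ended in 8 of 21 other settings (adjusted p up to 0.375) and that of Kcnj11 in 7 of 21 (up to 0.1). With the mean over probe sets the values were 0.40 for Kcnd1 (adjusted p = 0.375), 0.14 for Kcnma1 (adjusted p = 0.58), -0.33 for Cacnb1 (adjusted p = 0.254) and -0.41 for Kcnc1 (adjusted p = 0.0802), none of which passed, and -0.55 for Cacna2d1, which did. Kcnq5 did not pass without left leg replicate 5 of day 2 (adjusted p = 0.062). At day 7 it was -0.58 for Cacna2d1, -0.71 for Cacng1, -0.66 for Cacna1s, -0.68 for Clcn1, 1.27 for Clcn5, -0.88 for Kcnc1, -1.21 for Kcnc4, -0.69 for Kcng4, -1.08 for Kcnq5, 1.39 for Kcne4, 1.46 for Kcnj2, 0.95 for Kcnk6 and 1.00 for Scn7a. With the mean over probe sets, Cacna2d1 was at -0.34, Clcn5 at 0.69 and Kcnq5 at -0.71, all passing. At day 14 it was -0.53 for Cacna2d1, 2.13 for Cacna1g, -0.74 for Kcnc1, -1.33 for Kcnc4, 1.49 for Kcnd1, 0.46 for Kcnma1, -1.44 for Kcnk13 and -0.81 for Scn3b. The calls ended in 9 of 21 other settings for Kcnma1 (adjusted p up to 0.173), 7 of 20 for Kcnk13 (up to 0.0766), 6 of 21 for Kcnd1 (up to 0.542), 4 of 21 for Kcnc1 (up to 0.0682) and 2 of 21 for Scn3b (up to 0.117). With the mean over probe sets Kcnd1 was at 0.38 (adjusted p = 0.542) and Cacna2d1 at -0.18 (adjusted p = 0.417). Positive values mean a higher right-minus-left difference in tenotomy animals, and model and cohort cannot be told apart. Under the sample labels the sign of the tenotomy differences turns, and the models were not tested against each other in that form.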

How the results depend on the processing

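Counts of channel genes past the test moved by more than 1.5 times in 7 comparisons. In cast legs at day 7, where 8 passed, array weights gave 13 and leaving out the 6 arrays with a raised low end gave 5. For the change between cast days, where 5 passed, array weights gave 10. For the change between tenotomy days, where 7 passed, a pseudocount of 1 gave 4. In left legs against sham at day 2, where 6 passed, the mean over probe sets gave 3. For the difference between the models at day 14, where 10 passed, the mean over probe sets gave 5. In sham legs against naive at day 14, where 2 passed, only the groups compared, the stricter filter and the 105 arrays without a raised low end each gave 1. At day 7, where 0 passed, array weights and a pseudocount of 1 each gave 1. The causes were not tested.

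With the animals as a fixed replicate block, the change between tenotomy days gave 3 and the difference between the models at day 14 gave 4, and no other count of channel genes moved by more than 1.5 times. This block also ended the calls of Kcnma1 in cast legs at day 14 (adjusted p = 0.0707) and in the difference between the models at day 14 those of Kcnc1 (adjusted p = 0.0682), Kcnd1 (adjusted p = 0.071), Kcnk13 (adjusted p = 0.0766) and Kcnma1 (adjusted p = 0.137). In the change between tenotomy days it ended those of Cacna2d1 (adjusted p = 0.0783), Cacnb1 (adjusted p = 0.103) and Kcnab2 (adjusted p = 0.0861). Of the named genes it ended only these and the calls given with the results.

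Leaving out 1 array at a time gave 3 to 8 for the change between tenotomy days (3 without right leg replicate 5 of day 2), 2 to 8 in left legs against sham at day 2 and 10 to 16 at day 14, 21 to 28 in left against right legs at day 14 and 22 to 25 at day 2, 20 to 25 in right legs against sham at day 14 (28 with all arrays) and 22 to 26 at day 2, 6 to 10 for the difference between the models at day 14 and 20 to 25 at day 2, and 0 for sham against naive at day 2.

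The mean over probe sets turned Kcnma1 in right legs against sham to 0.43 at day 7 (adjusted p = 0.00131) and to 0.94 at day 14, where its difference had not passed. Quantile normalization gave 6 higher and 9 lower in cast legs at day 2 (4 and 10 without it), 4 and 1 for the change between cast days (5 and 0), 14 and 14 in uncast legs against naive (22 and 12), 13 and 16 in right legs against sham at day 14 (17 and 11). Across all settings, single results of the named genes kept direction and side of the threshold in 4269 cases and, without 1 array, in 2077, and lost the call in 121 and 83. Signals near the filter level, as for Kcnab2, Kcnn4, Kcnk13, Clcn2 and Kcnj2, give differences whose size depends on the added constant.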

Other observations

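Other channel genes, chosen after their values were seen, differed between cohorts. Kcna1, the Kv1.1 channel, had medians of 60.5, 54.2 and 54.4 in uncast legs of casting animals at days 2, 7 and 14, against 27.6 in naive muscle, a log2 difference of 0.87 ± 0.11 (limma, adjusted p = 2.13e-10), and its cast and uncast legs did not differ past the threshold. Kcnmb1, the beta1 subunit of the large-conductance potassium channel of smooth muscle, had medians of 15.6, 11.0 and 13.2 in uncast legs, against 1.6 in naive muscle, and passed with uncast legs higher (adjusted p = 1.92e-06). The filter level was exceeded in 17 of 26 uncast muscles and in none of 7 naive ones. With lower signals raised to that level the difference was 0.16 on the log2 scale. In the same comparison 5 of 7 smooth muscle and pericyte markers were higher and 2 lower in uncast legs than in naive muscle. Kcnq1ot1, a noncoding RNA, was higher than sham at day 14 in right legs of tenotomy animals by 1.16 ± 0.19 (adjusted p = 4.57e-07) and in left legs by 0.81 ± 0.19 (adjusted p = 0.000945), without overlap with sham in either leg. Clcn3, an endosomal chloride-proton exchanger, was higher than sham in left legs at all 3 days, by 0.53 ± 0.17, 0.67 ± 0.12 and 0.55 ± 0.13 (adjusted p = 0.0242, 1.2e-05 and 0.000828).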
